A study of Mus musculus with 36 samples.

Results

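The 10 genes described here are the Fos family (Fos, Fosb, Fosl1 and Fosl2), the Jun family (Jun, Junb and Jund) and 3 other immediate early or stress-induced genes (Egr1, Atf3 and Ier2). They were taken by gene symbol, as 10 of the 49585 gene IDs in the count table. The mRNA of neoplastic cells, sorted as EGFP-positive from 36 mouse lung tumours, was sequenced. The oncogene of every tumour was EML4-ALK, a fusion that joins part of EML4 to the ALK receptor tyrosine kinase, as either variant 3 or variant 1, and each variant carried either a guide against Setd2 (sgSetd2), which encodes the enzyme that adds the third methyl group to lysine 36 of histone H3, or the control guide sgNeo. The groups were Variant 3 sgSetd2 (codes CE450, CE454 and CE456), Variant 3 sgNeo (CE428, CE429 and CE433), Variant 1 sgSetd2 (CE475, CE479 and CE483) and Variant 1 sgNeo (CE467, CE468 and CE472), with 9 tumours each. A code is part of the sample title, shared by 3 tumours; the labels do not say what it stands for, nor the age or strain of the animals. Counts were therefore summed per code, which gave n = 3 in each group, and the tests weigh differences against the code-to-code spread, which may be technical.

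AP-1 is a family of dimeric transcription factors. Jun proteins pair with each other or with Fos proteins through a leucine zipper, whereas Fos proteins need a Jun partner, and the dimers bind the TGANTCA element and the related cAMP response element. Receptor tyrosine kinases such as ALK reach these genes through ERK and the TCF factors that act with SRF at serum response elements, so that Fos, Egr1 and Ier2 mRNA rises within minutes of a stimulus without new protein synthesis and decays quickly. The same genes are known to respond to stress kinases, and to the dissociation of a tissue into single cells.

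RefSeq promoter entries (GRCm38.p6) matched 7 of the 10 members. Sequences are shown for 5 of the 7, genes whose levels moved together across tumours, as described further on, and which were picked as examples after their letters were seen. The entries of Jund, which also moved with these genes, and of Fosl2 are not printed. Jund held the palindrome TGAAATCA from -61 to -54, and its RefSeq start lies 1210 bases from that of the GENCODE gene. Fosl2 held no match to any motif searched for. The 150 bases before the RefSeq start are printed 5′ to 3′ on the strand of the gene for Fos (chr12:85473740-85473889, plus strand), Fosb (chr7:19310046-19310195, minus strand), Jun (chr4:95052223-95052372, minus strand), Junb (chr8:84978749-84978898, minus strand) and Atf3 (chr1:191183334-191183483, minus strand). Capitals mark TGACG or its reverse complement CGTCA, the core of the cAMP response element, and in Jun the palindrome TGANNTCA.
Fos: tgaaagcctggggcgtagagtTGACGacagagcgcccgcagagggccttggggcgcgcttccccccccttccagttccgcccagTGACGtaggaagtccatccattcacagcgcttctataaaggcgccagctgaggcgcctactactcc
Fosb: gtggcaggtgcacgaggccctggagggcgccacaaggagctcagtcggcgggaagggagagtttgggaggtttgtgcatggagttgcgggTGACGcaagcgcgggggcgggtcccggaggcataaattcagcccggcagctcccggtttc
Jun: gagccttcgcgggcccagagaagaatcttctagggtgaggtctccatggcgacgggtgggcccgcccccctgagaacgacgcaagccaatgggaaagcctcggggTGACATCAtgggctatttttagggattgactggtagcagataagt
Junb: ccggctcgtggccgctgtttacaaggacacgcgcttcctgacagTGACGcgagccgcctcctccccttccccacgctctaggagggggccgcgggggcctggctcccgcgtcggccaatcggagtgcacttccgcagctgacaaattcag
Atf3: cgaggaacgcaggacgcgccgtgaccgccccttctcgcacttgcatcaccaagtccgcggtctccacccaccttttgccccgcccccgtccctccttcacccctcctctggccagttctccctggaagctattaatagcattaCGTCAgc
Fos held TGACG at positions -129 and -66 from its start, Fosb at -60 and Junb at -106, and Atf3 held CGTCA at -7. Jun held TGACATCA from -45 to -38, the element known as a binding site of Jun and ATF dimers. In the 250 bases before the start, TGACG on either strand was found in 17.8% of 32851 RefSeq promoters and TGANNTCA in 11.9%. The MEF2 motif, present in 2.92% of promoters, was found in Jun and Atf3 (-33 to -24 and -22 to -13), and TATAAA, present in 12.4%, in Fos (-33 to -28). No match to TGANTCA (6.75% of promoters) or to the CArG box (1.47%), the core of a serum response element, was found in these windows. Elements farther than 250 bases before the start could not be seen, and Fosl1, Egr1 and Ier2 had no entry. The blank result thus does not show that a member lacks such an element. The RefSeq start was that of the GENCODE gene for Fos and Jun, 6 bases from it for Fosb and 30 for Junb, whereas the Atf3 entry starts 34706 bases inside the gene. The 10 members were not chosen by, or tested on, their promoter letters, whereas the 5 printed sequences were picked with those letters known.

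A tumour had between 17.9 M and 137 M counts in all (M standing for 1e6; median 40.7 M) and a code between 91.5 M and 212.1 M, and every member was detected in all 36 tumours. The cell types present were checked against fixed markers, which do not tell neoplastic from normal cells of the same type. All 10 alveolar type 2 (AT2) cell markers were present in every tumour, with Sftpc at a median of 100789 CPM (counts scaled to the library size after TMM normalization), and markers of other cell types were low but not absent. Summed T, NK and B cell markers ran from 0.0 to 1.37 CPM over all tumours, with Nkg7 at 0 in all 36. Summed macrophage markers ran from 5.48 to 236 CPM, with C1qa under 1 CPM in all 36 and Lyz1 detected in every tumour, at up to 212 CPM, and summed fibroblast and muscle markers from 0.873 to 518 CPM, with Col1a1 at up to 105 CPM. One library stood apart, tumour 1 of CE467 in Variant 1 sgNeo. It had the lowest AT2 marker sum (29536 CPM, against a median of 140165 over all tumours) and the highest fibroblast and muscle marker sum (518 CPM, against a median of 20.5). Fold changes that moved most without it are also given without it. Setd2 mRNA averaged 45.7 ± 13.2 CPM in Variant 3 sgSetd2 and 54.6 ± 10.3 CPM in Variant 3 sgNeo codes, and 37.4 ± 2.52 CPM in Variant 1 sgSetd2 and 67.7 ± 12.8 CPM in Variant 1 sgNeo codes (SD, n = 3 each). In Variant 1 the codes did not overlap. In Variant 3 the codes labelled sgSetd2, CE450, CE454 and CE456, held 33.6, 43.8 and 59.8 CPM, against 52.9, 65.7 and 45.2 CPM in the sgNeo codes CE428, CE429 and CE433. The Setd2 mRNA of CE456 thus lay above that of 2 of the 3 sgNeo codes. Whether Setd2 was edited in a code was not tested. Without CE456, edgeR called 0 members in Variant 3 (sgSetd2 minus sgNeo), with log2 fold changes of 0.39 for Fos, 0.28 for Jun, 0.40 for Jund and -0.22 for Fosl1. In such bulk samples, fewer cells of a type and less RNA per cell cannot be told apart.

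Per length, Fos was by far the most abundant member. Its median was 3899 TPM (a level corrected for transcript length, over exon lengths of GENCODE release 21), which placed it at rank 19 of 49326 genes, above Jun in 36 of 36 tumours. Jun followed at 1114 TPM (rank 62), Egr1 at 1026 (67), Junb at 967 (73), Atf3 at 752 (92) and Ier2 at 687 (106). Neighbours in this middle run were not separated by their spread: Jun exceeded Egr1 in 19 of 36 tumours, Egr1 exceeded Junb in 25, Junb exceeded Atf3 in 28 and Atf3 exceeded Ier2 in 20. Jund stood lower, at 423 TPM (rank 215), and Fosb at 185 TPM (rank 569). The 2 late Fos-family members were the lowest, Fosl2 at 8.86 TPM (rank 7459) and Fosl1 at 3.85 TPM (rank 9754), with Fosl2 above Fosl1 in 31 of 36 tumours. Fosl1 is also the member measured with the fewest reads, from 25 to 1809 per tumour, against 37310 to 539226 for Fos.

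**Figure D1:**
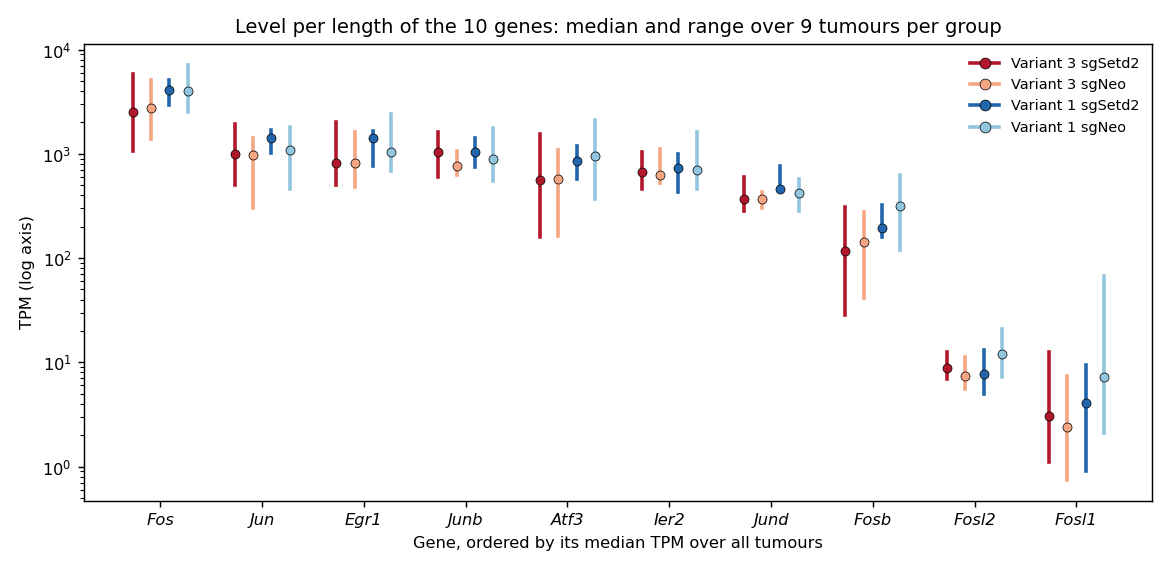
Median (point) and range (line) over the 9 tumours of each group, in TPM on a log axis, for the 10 genes ordered by their median over all tumours. Fos lies highest in each group and Fosl2 and Fosl1 lie lowest, at medians of 8.86 and 3.85 TPM over the 36 tumours.

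The Fos family was thus almost wholly Fos at the mRNA level. Fos made up a median of 95.2% of the family's TPM in Variant 3 sgSetd2, 95.2% in Variant 3 sgNeo, 94.5% in Variant 1 sgSetd2 and 92.5% in Variant 1 sgNeo tumours. Its lowest share was 86.2%, in a Variant 1 sgNeo tumour. The Jun family was divided more evenly. In Variant 3, Jun made up a median of 40.8% of the family's TPM in sgSetd2 and 45.9% in sgNeo tumours, Junb 39.3% and 37.2%, and Jund 18.1% and 17.1%. In Variant 1, Jun made up 48.2% in sgSetd2 and 44.3% in sgNeo tumours, Junb 34.7% and 39.1%, and Jund 16.0% and 16.8%. These shares are sums of mRNA and say nothing of which dimers form.

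The sgSetd2 tumours were then compared with sgNeo tumours within each variant. In Variant 1, the 3 Jun-family genes stood higher in every sgSetd2 code than in every sgNeo code. Of all genes tested, 11.7% did so, and no member passed the test. With edgeR's quasi-likelihood test on code sums, 0 of 10 members had an adjusted p under 0.05, where 1.42% of the 20009 genes tested did. At an unadjusted p under 0.05 there were 2, Jund and Fosl1, where the background was 15.9% of genes. DESeq2, limma on code means, limma voom with codes as random blocks and edgeR on the tumours each called 0 members as well.

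Jun (ENSMUSG00000052684.4; GRCm38 chromosome 4, 95049034 to 95052222) encodes c-Jun, the principal partner of Fos. Summed per code it stood at 1735, 1703 and 2188 CPM in Variant 1 sgSetd2 (CE475, CE479 and CE483), against 1327, 976 and 1282 CPM in Variant 1 sgNeo (CE467, CE468 and CE472). The codes did not overlap. Single tumours did: they ran from 1306 through a median of 1879 to 2397 CPM in sgSetd2, and from 395 through 1430 to 2367 CPM in sgNeo. The log2 fold change was 0.65 (SE 0.31, 95% interval -0.03 to 1.33) and did not pass, at an adjusted p of 0.342 by edgeR. Without tumour 1 of CE467, which held the 395 CPM, it was 0.29. In Variant 3, Jun stood at 888, 2267 and 1156 CPM in sgSetd2 (CE450, CE454 and CE456), against 1313, 1619 and 966 CPM in sgNeo (CE428, CE429 and CE433), with a log2 fold change of 0.14 (SE 0.31, edgeR adjusted p = 0.894). One sgSetd2 code, CE454, lay above every sgNeo code, and another, CE450, below them all.

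Jund (ENSMUSG00000071076.6; chromosome 8, 70698949 to 70700616), whose product is the least inducible Jun protein and restrains growth in many cells, stood at 331, 384 and 338 CPM in the Variant 1 sgSetd2 codes CE475, CE479 and CE483, against 293, 215 and 232 CPM in the sgNeo codes CE467, CE468 and CE472. Tumours ran from 299 through a median of 338 to 506 CPM in sgSetd2, and from 165 through 273 to 452 CPM in sgNeo. The log2 fold change was 0.51 (SE 0.20, 95% interval 0.08 to 0.94), with an edgeR adjusted p of 0.229. Without tumour 1 of CE467 it was 0.27. In Variant 3 the codes CE450, CE454 and CE456 of sgSetd2 held 240, 406 and 261 CPM, and the codes CE428, CE429 and CE433 of sgNeo 219, 272 and 247 CPM. The Variant 3 log2 fold change of Jund was 0.30 (SE 0.20, edgeR adjusted p = 0.527).

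Junb (ENSMUSG00000052837.6; chromosome 8, 84974484 to 84978718), which encodes a Jun protein of weaker activating capacity than c-Jun, stood at 912, 1025 and 1052 CPM in the Variant 1 sgSetd2 codes, against 858, 832 and 789 CPM in the sgNeo codes. The lowest sgSetd2 code was thus close above the highest sgNeo code, and the log2 fold change was 0.27 (SE 0.21, edgeR adjusted p = 0.602). Without tumour 1 of CE467, at 335 CPM the lowest of all tumours for Junb, it was -0.034. In Variant 3, Junb stood at 662, 1359 and 909 CPM in sgSetd2 and at 720, 813 and 843 CPM in sgNeo codes, with a log2 fold change of 0.30 (SE 0.21, edgeR adjusted p = 0.557). Of all genes tested in Variant 1, 11.7% had all 3 sgSetd2 codes above all 3 sgNeo codes, 12.3% had them all below, and 24.0% had either. In Variant 3 these shares were 10%, 8.96% and 19.0%, and 0 of 10 members had codes that did not overlap. Antisense or opposite-strand exons cover 232 of 3189 exon bases of Jun (Junos), 173 of 2301 of Junb (Prdx2) and 877 of 1668 of Jund (Gm11175). The medians of these overlapping genes were 18.5 CPM for Junos, 132 CPM for Prdx2 and 0 CPM for Gm11175. As the use of strand in counting is not given in the sources used here, reads in the shared exon bases cannot be assigned to a strand.

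Averaged over both variants, the Jun family lay higher in sgSetd2 by 0.40 for Jund (SE 0.14, 95% interval 0.10 to 0.71), 0.40 for Jun (SE 0.22) and 0.29 for Junb (SE 0.15) on the log2 scale. Jun was 0.15 without CE454 and 0.21 without tumour 1 of CE467, and Junb 0.13 without either. With edgeR 0 members passed, against 7.35% of all genes, and the adjusted p-values were 0.105 for Jund, 0.314 for Jun and 0.281 for Junb. At an unadjusted p under 0.05 there was 1 member, Jund, against 22.9% of genes. DESeq2 on the same sums called Jund (log2 fold change 0.41, adjusted p = 0.0355), in a fit that called 2908 of 20009 genes where edgeR called 1471. Over the fits that left out 1 code the edgeR value of Jund ran from 0.27, without CE454, to 0.48, with adjusted p-values of 0.0761 to 0.213. Over the fits that left out 1 tumour it ran from 0.28 to 0.45, with adjusted p-values of 0.0584 to 0.424.

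The guide differences of Fos, Fosb and Fosl2 did not pass the test in either variant. Fos (ENSMUSG00000021250.13; chromosome 12, 85473890 to 85477273) averaged 3894 ± 347 CPM in Variant 1 sgSetd2 and 3675 ± 391 CPM in Variant 1 sgNeo codes (SD, n = 3 each). Its tumours ran from 2773 through 4049 to 4324 CPM in sgSetd2, and from 1582 through 3643 to 6919 CPM in sgNeo, so that the sgNeo tumours enclosed those of sgSetd2. The log2 fold change was 0.08 (SE 0.33, 95% interval -0.64 to 0.81, edgeR adjusted p = 0.943), and its sign turned without tumour 1 of CE467 (-0.24). The 3 tumours of that code held 1582, 6919 and 6630 CPM, and tumour 1, the lowest, was the deepest of them (40.7 M counts, against 24.0 M and 26.7 M), so that it weighs most in the sum. Mean TPM over codes, which weights tumours equally, also had the other sign, at 4042 ± 41.5 in sgSetd2 and 4602 ± 553 in sgNeo. In Variant 3, Fos averaged 3227 ± 1928 CPM in sgSetd2 and 2909 ± 695 CPM in sgNeo codes, with a log2 fold change of 0.15 (SE 0.33, edgeR adjusted p = 0.898). The sgSetd2 codes CE450, CE454 and CE456 stood at 2170, 5452 and 2058 CPM, of which CE454 lay above and CE456 below all of the sgNeo codes, at 3100, 3488 and 2139 CPM.

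Fosb (ENSMUSG00000003545.3; chromosome 7, 19302696 to 19310051), a close relative of Fos, averaged 411 ± 293 CPM in Variant 3 sgSetd2 and 405 ± 169 CPM in Variant 3 sgNeo codes, whereas the Variant 1 codes held 646, 494 and 563 CPM in sgSetd2 and 1049, 358 and 716 CPM in sgNeo. Its log2 fold changes were 0.02 in Variant 3 (SE 0.49) and -0.32 in Variant 1 (SE 0.49), with edgeR adjusted p-values of 0.993 and 0.83. Fosl2 (ENSMUSG00000029135.10; chromosome 5, 32135801 to 32157842), which lacks the strong transactivation domain of Fos, averaged 35.5 ± 6.47 CPM in Variant 3 sgSetd2 and 29.6 ± 5.25 CPM in Variant 3 sgNeo codes. In Variant 1 it averaged 33.0 ± 5.87 CPM in sgSetd2 and 43.2 ± 9.61 CPM in sgNeo codes. Its values therefore lay in opposite directions, 0.26 in Variant 3 (SE 0.21, edgeR adjusted p = 0.615) and -0.39 in Variant 1 (SE 0.21, edgeR adjusted p = 0.399), and the codes overlapped in both. The Variant 1 value of Fosl2 was -0.18 without CE467, and that of Fosb -0.67 without tumour 1 of CE467 and 0.088 without the whole code.

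Fosl1 (ENSMUSG00000024912.5; chromosome 19, 5447547 to 5455946) encodes Fra-1, a Fos-family protein stabilised by ERK and linked to invasive cancer cells. Its largest difference came from 1 code. In Variant 1 it stood at 2.33, 5.43 and 1.72 CPM in the sgSetd2 codes CE475, CE479 and CE483, against 25.4, 4.90 and 3.05 CPM in the sgNeo codes CE467, CE468 and CE472. The 3 tumours of CE467 held 36.2, 15.3 and 13.2 CPM, the highest values of Fosl1 in any tumour. The log2 fold change was -1.81 (SE 0.76, 95% interval -3.49 to -0.14), with an edgeR adjusted p of 0.272, and was -1.24 without tumour 1 of CE467 and -0.32 without the code CE467. Over all tumours of Variant 1, Fosl1 ran from 0.797 through a median of 3.18 to 7.06 CPM in sgSetd2, and from 1.37 through 5.92 to 36.2 CPM in sgNeo, and these ranges overlapped. In Variant 3 it averaged 3.38 ± 1.54 CPM in sgSetd2 and 3.25 ± 1.31 CPM in sgNeo codes, with a log2 fold change of 0.06 (SE 0.74, edgeR adjusted p = 0.983).

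The guide differences of Egr1, Atf3 and Ier2 did not pass the test in either variant. Egr1 (ENSMUSG00000038418.7; chromosome 18, 34859823 to 34864984), a zinc-finger factor induced by ERK signalling, averaged 1978 ± 1183 CPM in Variant 3 sgSetd2 and 1701 ± 351 CPM in Variant 3 sgNeo codes, and 2397 ± 225 CPM in Variant 1 sgSetd2 and 2006 ± 405 CPM in Variant 1 sgNeo codes. Atf3 (ENSMUSG00000026628.13; chromosome 1, 191170296 to 191218039), a stress-induced bZIP factor that pairs with Jun proteins, averaged 703 ± 525 CPM in Variant 3 sgSetd2 and 536 ± 233 CPM in Variant 3 sgNeo codes. In Variant 1 it averaged 753 ± 76.6 CPM in sgSetd2 and 765 ± 443 CPM in sgNeo codes. Ier2 (ENSMUSG00000053560.4; chromosome 8, 84661331 to 84662852), an early growth-factor response gene, lay between 420 and 463 CPM in all 4 group means. The log2 fold changes in Variant 3 were 0.22 for Egr1, 0.39 for Atf3 and -0.07 for Ier2, with standard errors of 0.34, 0.52 and 0.21. In Variant 1 they were 0.26, -0.02 and 0.12, with the same standard errors, and the smallest edgeR adjusted p among these 6 values was 0.792. Without tumour 1 of CE467 the Variant 1 values were -0.11 for Egr1, -0.41 for Atf3 and -0.14 for Ier2.

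**Figure D2:**
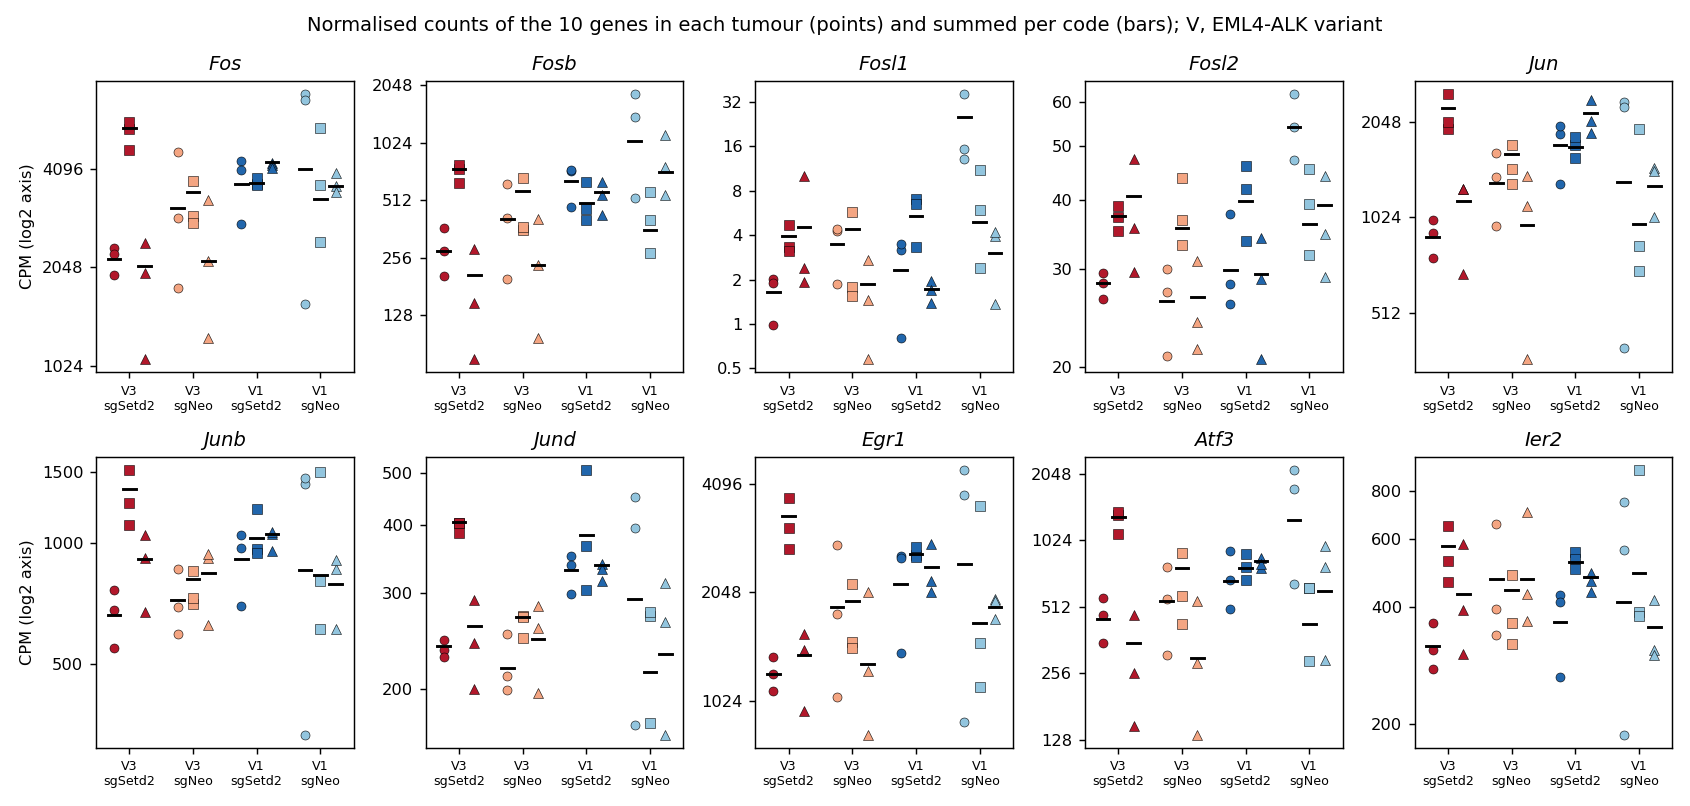
CPM on log2 axes in each of the 36 tumours, with the code marked by position and symbol within its group and a bar for the sum of the code. The 3 tumours of CE454 (the middle position in Variant 3 sgSetd2) lie above the other 6 of their group for Fos, Jun, Egr1 and Atf3, and Jun lies between 1306 and 2397 CPM in Variant 1 sgSetd2 and between 395 and 2367 CPM in Variant 1 sgNeo.

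In Variant 3 as a whole, 0 of 10 members passed with edgeR, against 1.49% of genes, and 0 had an unadjusted p under 0.05, against 15.1% of genes. DESeq2, both limma fits and edgeR on the tumours called 0 there too. The median log2 fold change of the members was 0.18 in Variant 3 (9 positive) and 0.10 in Variant 1 (6 positive), beside 0.02 and -0.01 over all genes tested. Of those 20009 genes, 10378 were positive in Variant 3 and 9909 in Variant 1. Most members moved together across tumours, so that their signs are not independent. Over fits without 1 code, the Variant 3 values ran from -0.46 to 0.39 for Fos, -0.35 to 0.40 for Jun and -0.41 to 0.75 for Atf3. Whether the guide difference depended on the variant was asked by the interaction, Variant 3 minus Variant 1. With edgeR 0 members and 0.0% of genes passed, while 1 member and 6.0% of genes had an unadjusted p under 0.05. DESeq2 called 0 members and 114 genes. The 3 members of smallest p were Fosl2 (0.65, SE 0.29, adjusted p = 0.824), Fosl1 (1.87, SE 1.06, adjusted p = 0.843) and Jun (-0.51, SE 0.44, adjusted p = 0.932). The 95% intervals allowed large differences, for Fosl2 from 0.01 to 1.29 and for Jun from -1.47 to 0.46 on the log2 scale. Fosl1 was 0.39 without CE467. Jun ran from -1.0, without CE454, to -0.25, without CE450, over fits without 1 code, and was -0.14 without tumour 1 of CE467.

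The 2 variants were also compared with each other under the same guide. In sgNeo tumours 8 of 10 members lay lower in Variant 3 than in Variant 1, with a median log2 fold change of -0.29, beside -0.02 over all genes, and none passed. Of all 20009 genes tested, 10427 lay lower in Variant 3. EdgeR called 0 members, against 0.005% of genes, and 2 members had an unadjusted p under 0.05, against 10.4% of genes. DESeq2 called 392 genes and 0 members, and edgeR on the tumours, limma on code means and limma voom also called 0 members. Fosl2 stood at 26.3, 35.6 and 26.8 CPM in the Variant 3 sgNeo codes CE428, CE429 and CE433, against 54.1, 36.2 and 39.2 CPM in the Variant 1 sgNeo codes CE467, CE468 and CE472. The codes did not overlap, though CE429 lay just under CE468. Of all genes 8.21% had their Variant 3 codes all below, 6.83% all above and 15.0% either, and Fosl2 was the 1 member with codes apart. The log2 fold change was -0.55 (SE 0.21, 95% interval -1.0 to -0.09, edgeR adjusted p = 0.407) and was -0.34 without CE467.

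Fosl1 averaged 3.25 ± 1.31 CPM in Variant 3 sgNeo and 11.1 ± 12.4 CPM in Variant 1 sgNeo codes, a log2 fold change of -1.77 (SE 0.76, edgeR adjusted p = 0.452) that was -0.28 without CE467. Fosb, at 405 ± 169 CPM in Variant 3 sgNeo and 708 ± 346 CPM in Variant 1 sgNeo codes, gave -0.80 (SE 0.49), and Atf3, at 536 ± 233 and 765 ± 443 CPM in the same groups, gave -0.51 (SE 0.52). Fos gave -0.34 (SE 0.33) and Egr1 -0.24 (SE 0.34). The Jun family lay near 0, with 0.12 for Jun, -0.06 for Junb and -0.01 for Jund, and Ier2 gave 0.14. Without tumour 1 of CE467 the values were -0.66 for Fos, -1.16 for Fosb, -0.60 for Egr1, -0.89 for Atf3, -0.24 for Jun, -0.36 for Junb, -0.25 for Jund and -0.12 for Ier2. Without the whole code they were -0.39 for Fosb, -0.052 for Egr1 and 0.073 for Atf3. In sgSetd2 tumours no member passed with edgeR (0.13% of genes did), 0 had an unadjusted p under 0.05 (9.7% of genes did), and DESeq2 called 0. No member had codes that did not overlap, where 8.62% of genes had their Variant 3 codes all above, 8.06% all below and 16.7% either. The 3 of smallest p were Jun (-0.38, SE 0.31, adjusted p = 0.726), Jund (-0.22, SE 0.20, adjusted p = 0.757) and Fosb (-0.47, SE 0.49, adjusted p = 0.794). Without CE454 they were -0.88, -0.49 and -1.22, in the same order, without CE450 -0.13, -0.073 and -0.25, and without CE456 -0.25, -0.12 and -0.14. The guide and variant comparisons share their groups and are not independent of each other.

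**Figure D3:**
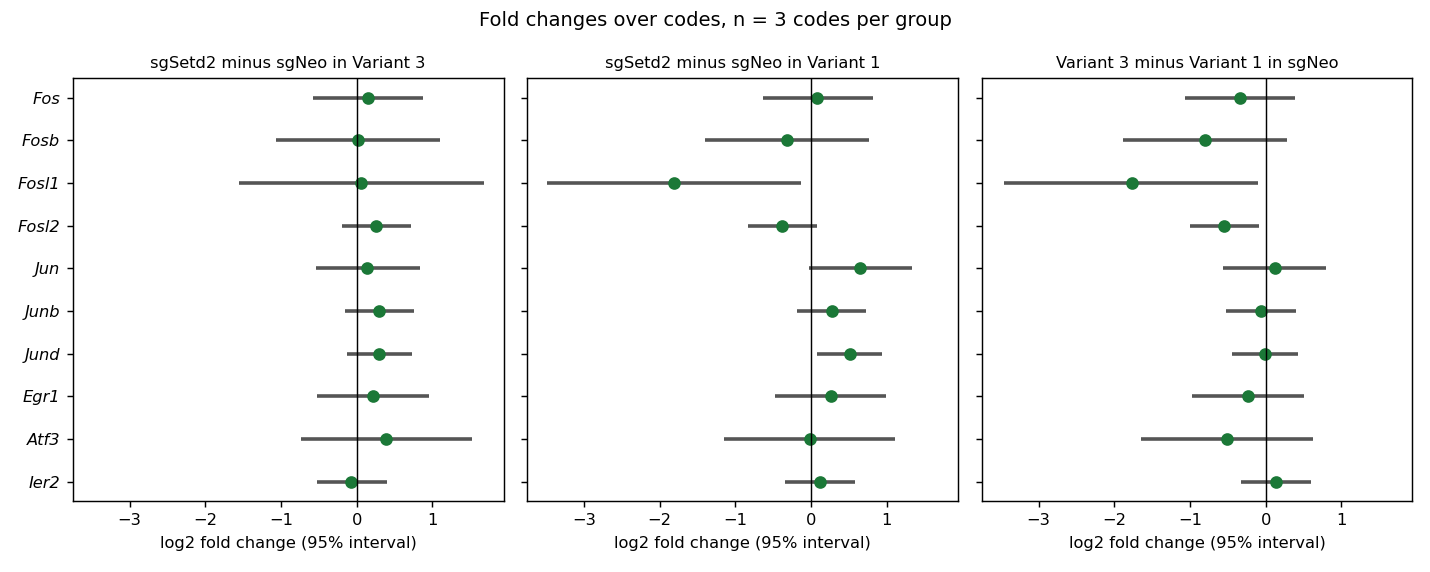
Log2 fold changes of the 10 genes (points) with 95% intervals (lines) of sgSetd2 over sgNeo within Variant 3 and within Variant 1, and of Variant 3 over Variant 1 under sgNeo, each over 3 codes per group. The intervals of Jund (0.08 to 0.94) and Fosl1 (-3.49 to -0.14) in Variant 1 and of Fosl1 (-3.45 to -0.10) and Fosl2 (-1.0 to -0.09) between the variants leave out 0, and none of these values passed after adjustment over 20009 genes.

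For every member the SD between tumours of a code was above the SD between the 4 group means. Means over tumours vary less than single tumours do, so these SDs are not on one footing. For Fos the SD of log2(CPM + 1) was 0.53 between tumours of a code, 0.46 between code means of a group and 0.30 between the 4 group means. For Jun these SDs were 0.62, 0.43 and 0.30, and for Egr1 0.57, 0.43 and 0.27. Fosb (0.64 and 0.75), Atf3 (0.64 and 0.76), Fosl1 (0.66 and 0.77) and Fosl2 (0.25 and 0.29) differed still more between the codes of a group. Ier2 hardly differed between groups at all, its 4 group means spanning 0.11.

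The spread itself was uneven between groups. Variant 1 sgSetd2 tumours were the most alike: the highest Fos value was 1.56 times the lowest there, against 4.37 times in Variant 1 sgNeo (2.82 times without tumour 1 of CE467), while the ratio was 5.30 in Variant 3 sgSetd2 and 3.72 in Variant 3 sgNeo. For Atf3 the ratios were 1.84 in Variant 1 sgSetd2 and 7.35 in Variant 1 sgNeo, and 9.33 in Variant 3 sgSetd2 and 6.66 in Variant 3 sgNeo. Variant 1 sgSetd2 had the lowest SD over tumours for 7 of 10 members. Genes at large leaned the same way, since 46.0% of 10214 genes with a mean of at least 5 CPM had their lowest SD in that group. The median SD of the members was 0.29 in Variant 1 sgSetd2 and 0.76 in Variant 1 sgNeo, beside 0.27 and 0.39 over those genes. In Variant 3 it was 0.68 in sgSetd2 and 0.56 in sgNeo, beside 0.32 and 0.37. No test of spread was made.

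Within Variant 3 sgSetd2 the codes fell far apart. CE454 was the highest of the 12 codes for 7 members (Fos, Jun, Junb, Jund, Egr1, Atf3 and Ier2) and among the top 3 for Fosb, whereas CE450 was among the lowest 3 for 8 members and the lowest of all for 5. Egr1 stood at 3341 CPM in CE454, against 1218 CPM in CE450 and 1375 CPM in CE456, and Atf3 at 1307 CPM in CE454, against 452 and 351 CPM. Fosl1 and Fosl2 did not share this order, and were highest within the group in CE456 (4.56 and 40.7 CPM). Over all codes, the mean log2 level of the 10 members ran from 7.28 in tumour 2 of CE433 and 7.47 in tumour 6 of CE456 to 9.59 in tumour 3 of CE467.

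Across the 36 tumours, 8 members moved together. After the mean of each group was subtracted, the 28 pairs among Fos, Fosb, Jun, Junb, Jund, Egr1, Atf3 and Ier2 had Spearman correlations of log2(CPM + 1) from 0.40 to 0.94, with a median of 0.76. Fos with Egr1 (0.94), Fos with Jun (0.92) and Fosb with Atf3 (0.91) were the closest pairs, and Fosb with Ier2 (0.40) was the loosest. Fosl1 and Fosl2 stood aside: their 16 correlations with those 8 ran from 0.17 to 0.51 (median 0.33), whereas the correlation between them was 0.64. Tumours of a code are not independent, and each tumour's values come from 1 library, so these correlations are a description.

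**Figure D4:**
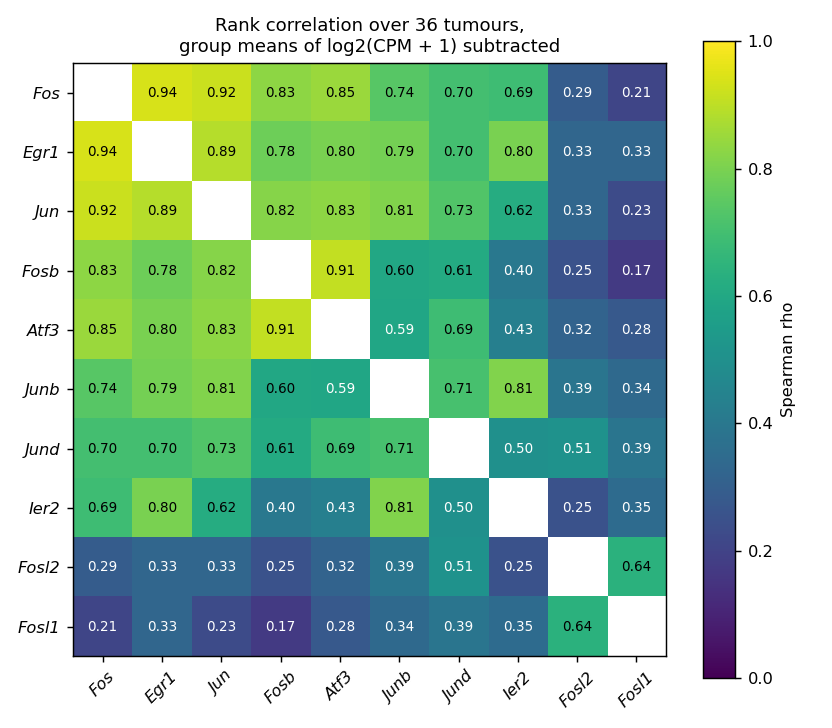
Spearman correlation of each pair of members over 36 tumours on log2(CPM + 1) with group means subtracted, from 0 (dark) to 1 (bright). Fos, Egr1 and Jun form the brightest block, at 0.89 to 0.94, and Fosl2 and Fosl1 the dark margin, with 0.64 between them.

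Over the 12 codes the same relation was tested for Fos against each of the 9 others, with group means subtracted and by exact permutation of codes within groups (1296 arrangements, two-sided, smallest p 0.000772, adjusted over 9 relations). Jun (r = 0.94, rho = 0.94, adjusted p = 0.0139 for r and 0.0185 for rho), Egr1 (r = 0.96, rho = 0.95, adjusted p = 0.033 and 0.0185), Atf3 (r = 0.90, rho = 0.95, adjusted p = 0.00694 for both) and Fosb (r = 0.87, rho = 0.85, adjusted p = 0.0139 and 0.0278) followed Fos. Unadjusted, the exact p of r was 0.00463 for Jun and Fosb, 0.0147 for Egr1 and 0.000772 for Atf3. CE454 and CE456, the 2 codes farthest from the median of Fos, were then left out, with group means still taken over all 12 codes. This gave an r of 0.96 for Jun, 0.90 for Egr1, 0.83 for Atf3 and 0.78 for Fosb. CE450, the only code left in its group, was thus centred on a mean that held both dropped codes. An r without these 2 codes, here and below, therefore cannot show whether the relation holds free of them. Jund (r = 0.78, rho = 0.77, adjusted exact p = 0.149 and 0.0847), Junb (r = 0.72, rho = 0.45, adjusted exact p = 0.464 and 0.357) and Ier2 (r = 0.52, rho = 0.24, adjusted exact p = 0.528 and 0.606) did not pass, and their r was 0.52, 0.45 and 0.26 without these 2 codes. Fosl1 (r = 0.28, rho = 0.35, adjusted exact p = 0.434 and 0.357) and Fosl2 (r = 0.29, rho = 0.39, adjusted exact p = 0.528 and 0.357) did not pass, with r at 0.49 and 0.57 without them.

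**Figure D5:**
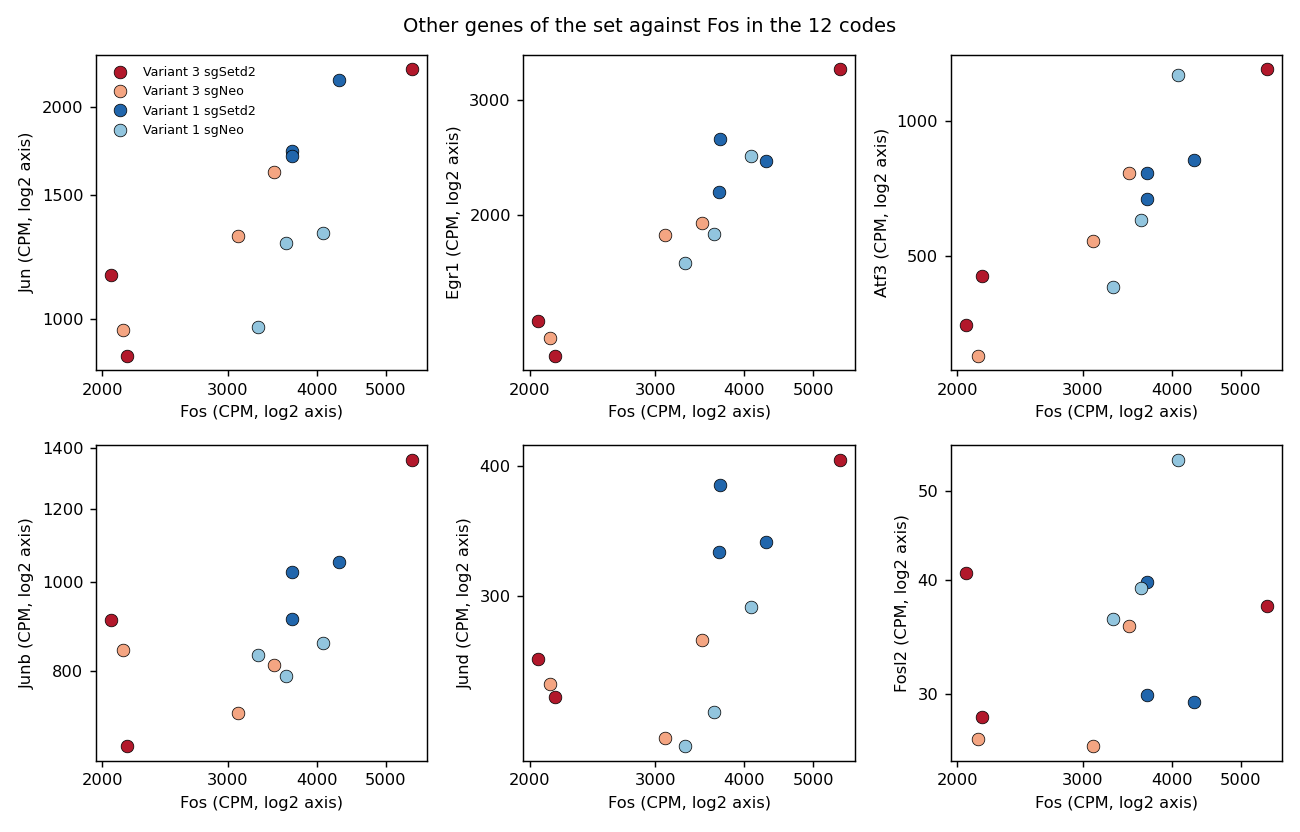
CPM of Jun, Egr1, Atf3, Junb, Jund and Fosl2 against Fos in the 12 codes, both on log2 axes and without subtraction of group means, coloured by group. CE454 (Variant 3 sgSetd2, Fos at 5452 CPM) lies at the upper right in the panels of Jun, Egr1, Atf3, Junb and Jund but not in that of Fosl2.

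Likeness to the members over the 36 tumours was ranked among 9867 genes of at least 5 CPM on average, with members set aside. Those most like the members were again early-response genes, with rho on group-centred log2(CPM + 1). Zfp36, an mRNA-decay factor, and Dusp1, a MAPK phosphatase, were nearest to Fos (0.90 each), followed by the nuclear receptor Nr4a1 (0.85). Jun was nearest to Dusp1 (0.96), Errfi1, an EGFR-family inhibitor (0.84), and Zfp36 (0.83), and Egr1 to Zfp36 (0.90), Dusp1 (0.83) and Nr4a1 (0.82). Fosb and Atf3 shared Nr4a1 (0.89 and 0.82) and Csrnp1 (0.88 and 0.82), next to Dusp1 for Fosb (0.78) and Siah2 for Atf3 (0.81). Junb was nearest to Ppp1r15a (0.89), Hbegf, an EGFR ligand (0.86), and Zfp36 (0.81), and Ier2 to Zfp36 (0.82), Trib1 (0.80) and Ppp1r15a (0.80). Jund was nearest to Tob1 (0.82), Arrdc3 (0.81) and Klf4 (0.76). The late members had other neighbours, Fosl1 with Cish (0.77), Lmna (0.74) and the heat shock gene Hspa1b (0.73), and Fosl2 with Rab11fip1 (0.74), Phlda1 (0.72) and Ccn1 (0.71).

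The mean log2 level of the members over the 36 tumours, group means subtracted, had a Spearman correlation of 0.90 with that of 18 other immediate early and stress-response factors, 0.78 with that of 14 MAPK feedback genes and 0.53 with that of 10 heat shock genes known from dissociated cells. With library measures it was -0.10 for total counts and 0.13 for the mitochondrial share. With marker sums it was 0.41 for endothelial, 0.26 for macrophage, 0.27 for pan-epithelial, 0.24 for T, NK and B cell, 0.16 for fibroblast and muscle, 0.15 for AT2 and 0.01 for neutrophil markers. Summed endothelial markers ran from 0.0164 to 2.60 CPM in Variant 3 sgSetd2 and from 0.0 to 3.57 CPM in Variant 3 sgNeo tumours, and from 0.417 to 8.90 CPM in Variant 1 sgSetd2 and from 0.606 to 3.30 CPM in Variant 1 sgNeo tumours, with Cdh5 at 0 in 25 of 36. The heat shock list reached a mean of 10.2 in tumour 4 of CE479 (Variant 1 sgSetd2), which also had the highest Jund (506 CPM), over a median of 6.76. The part of these in the members' levels was not tested.

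Genes around AP-1 were examined as 6 lists. Of the 18 immediate early and stress-response factors, 17 were tested and 0 passed with edgeR in any of the 6 comparisons, with medians of -0.25 in Variant 1, 0.02 in Variant 3 and -0.14 averaged over variants. Up to 5 of them had an unadjusted p under 0.05, in the averaged comparison. Egr2, a relative of Egr1, averaged 8.14 ± 8.49 CPM in Variant 3 sgSetd2 and 23.4 ± 10.6 CPM in Variant 3 sgNeo codes, and 10.7 ± 6.63 CPM in Variant 1 sgSetd2 and 35.6 ± 11.3 CPM in Variant 1 sgNeo codes, an averaged log2 fold change of -1.63 (SE 0.49, edgeR adjusted p = 0.0678). Myc, the proto-oncogene, gave -1.38 (SE 0.43, edgeR adjusted p = 0.076) and Srf, the serum response factor, -0.39 (SE 0.16, edgeR adjusted p = 0.164). In sgNeo, Nr4a2, an orphan nuclear receptor, averaged 2.83 ± 0.482 CPM in Variant 3 and 21.8 ± 19.4 CPM in Variant 1 codes (-2.94, SE 0.75, edgeR adjusted p = 0.284), Ier5 gave -0.87 (SE 0.32, edgeR adjusted p = 0.406), and Nr4a3 -2.07 (SE 0.89, edgeR adjusted p = 0.452).

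Of 20 other bZIP partners, all tested, Batf3 rose in sgSetd2 averaged over variants, 18 did not pass, and 0 passed in the other 5 comparisons. Batf3, an AP-1 factor of dendritic cells, averaged 2.32 ± 1.57 CPM in Variant 3 sgSetd2 and 0.237 ± 0.259 CPM in Variant 3 sgNeo codes, and 2.38 ± 0.678 CPM in Variant 1 sgSetd2 and 0.550 ± 0.429 CPM in Variant 1 sgNeo codes (2.69, SE 0.66, edgeR adjusted p = 0.0319). The Batf3 call was lost without any 1 of 9 codes (CE467, CE472, CE475, CE479, CE483, CE428, CE433, CE450 or CE456), with adjusted p-values up to 0.0797, or of 3 tumours (tumour 1 of CE428, tumour 1 of CE468 and tumour 3 of CE433), up to 0.093. In sgNeo, Atf4, the integrated stress response factor, stood at 123 ± 6.56 CPM in Variant 3 and 159 ± 14.9 CPM in Variant 1 codes (-0.37, SE 0.15, edgeR adjusted p = 0.417), and Atf2, a Jun partner, gave -0.31 (SE 0.13, edgeR adjusted p = 0.453).

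Of 14 MAPK feedback genes, all tested, Etv4 and Dusp4 fell in sgSetd2 averaged over variants and 12 did not pass. Etv4, an ETS factor downstream of ERK, averaged 19.6 ± 1.58 CPM in Variant 3 sgSetd2 and 27.1 ± 0.667 CPM in Variant 3 sgNeo codes, and 15.4 ± 2.91 CPM in Variant 1 sgSetd2 and 27.6 ± 4.62 CPM in Variant 1 sgNeo codes. Its averaged log2 fold change was -0.66 (SE 0.12, edgeR adjusted p = 0.00866) and was called in each fit without 1 code, and without 1 tumour except tumour 2 of CE472 (adjusted p = 0.0776). Dusp4, an ERK phosphatase, averaged 29.7 ± 12.2 CPM in Variant 3 sgSetd2 and 63.1 ± 3.42 CPM in Variant 3 sgNeo codes, and 42.2 ± 4.89 CPM in Variant 1 sgSetd2 and 69.6 ± 10.7 CPM in Variant 1 sgNeo codes. Its averaged value was -0.91 (SE 0.17, edgeR adjusted p = 0.00995) and was called in every fit without 1 code or 1 tumour. Within 1 variant, Dusp4 fell in Variant 3 (-1.09, SE 0.24, edgeR adjusted p = 0.0492) and Etv4 in Variant 1 (-0.84, SE 0.17, edgeR adjusted p = 0.0351). The Dusp4 call in Variant 3 was lost without any 1 of 11 codes, all but CE454, with adjusted p-values up to 0.172, and without any 1 of 25 tumours, up to 0.106. The Etv4 call in Variant 1 was lost without any 1 of 8 codes, all but CE467, CE429, CE454 and CE456, up to 0.163. It was also lost without any 1 of 8 tumours, up to 0.314: tumour 1 of CE428, CE467, CE468 or CE479, tumour 2 of CE429 or CE472, and tumour 3 of CE433 or CE475. The list's medians were -0.06 in Variant 3 and -0.10 in Variant 1. Etv5, a relative of Etv4, gave -0.52 averaged over variants (SE 0.18, edgeR adjusted p = 0.111), and Spry2, an ERK pathway inhibitor, 0.59 for Variant 3 minus Variant 1 in sgNeo (SE 0.19, edgeR adjusted p = 0.359).

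Of 16 upstream kinases and TCF factors, all tested, 0 passed with edgeR in any comparison, and up to 3 had an unadjusted p under 0.05, in Variant 3 minus Variant 1 in sgNeo. Elk3, a TCF factor, gave -0.30 (SE 0.09, edgeR adjusted p = 0.0764) and Braf, a MAP kinase kinase kinase, 0.27 (SE 0.11, edgeR adjusted p = 0.164) in sgSetd2 averaged over variants, and Map2k7, a JNK kinase, gave 0.48 (SE 0.15, edgeR adjusted p = 0.356) in Variant 3 minus Variant 1 in sgNeo. Of 22 AP-1 target genes, 21 were tested, and Cd44 rose in sgSetd2 averaged over variants while 20 did not pass. Cd44, a hyaluronan receptor, averaged 363 ± 60.9 CPM in Variant 3 sgSetd2 and 247 ± 15.8 CPM in Variant 3 sgNeo codes, and 481 ± 28.1 CPM in Variant 1 sgSetd2 and 306 ± 34.2 CPM in Variant 1 sgNeo codes (0.60, SE 0.10, edgeR adjusted p = 0.00542). This held in each fit without 1 code or 1 tumour. Cd44 also rose within Variant 1 (0.65, SE 0.14, edgeR adjusted p = 0.0491), a call lost without any 1 of 10 codes, all but CE450 and CE456, with adjusted p-values up to 0.202, and without any 1 of 24 tumours, up to 0.115. Mmp14, a membrane collagenase, gave 0.69 (SE 0.26, edgeR adjusted p = 0.138) and Areg, an EGFR ligand, 0.56 (SE 0.22, edgeR adjusted p = 0.154), averaged over variants. Il6, a cytokine, stood at 3.25 ± 0.686 CPM in Variant 3 sgNeo and 17.9 ± 11.1 CPM in Variant 1 sgNeo codes (-2.46, SE 0.70, edgeR adjusted p = 0.326). The collagenase gene Mmp13 and the stromelysin gene Mmp10 were at 0 in all 6 Variant 3 codes, and reached 10.6 and 0.263 CPM in single Variant 1 sgSetd2 codes and 10.7 and 23.4 CPM in single Variant 1 sgNeo codes. The medians of the AP-1 target list were 0.55 in Variant 3 and -0.10 in Variant 1.

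Of 10 heat shock genes, all tested, Hspb1, a small chaperone, rose in sgSetd2 averaged over variants (2.38, SE 0.59, edgeR adjusted p = 0.0329) and 9 did not pass. It averaged 31.4 ± 6.83 CPM in Variant 3 sgSetd2 and 6.95 ± 3.84 CPM in Variant 3 sgNeo codes, and 191 ± 235 CPM in Variant 1 sgSetd2 and 31.8 ± 23.6 CPM in Variant 1 sgNeo codes. The value was 1.49 at its lowest among fits without 1 code, and the call was lost without CE468, CE472, CE428, CE433, CE450 or CE456, with adjusted p-values up to 0.0832. One Variant 1 sgSetd2 code held 462 CPM, against 50 and 60 CPM in the other two. Dnajb1, an Hsp40 gene, gave 0.62 (SE 0.33, edgeR adjusted p = 0.287) and Hspa1b, an inducible Hsp70 gene, 0.95 (SE 0.53, edgeR adjusted p = 0.325).

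Of the 7 marker lists, 2 genes passed in the averaged comparison. Napsa, an AT2 protease, fell (-1.29, SE 0.18, edgeR adjusted p = 0.0022) while the other 9 AT2 markers did not pass, and it also fell within Variant 3 (-1.64, SE 0.26, edgeR adjusted p = 0.0111). The Variant 3 call was lost without CE450 (adjusted p = 0.0544) or tumour 3 of CE433 (adjusted p = 0.0981). Cxcr2, of the neutrophil list, rose (2.41, SE 0.47, edgeR adjusted p = 0.0116), with Csf3r at 0 in 35 of 36 tumours and S100a9 in 34, and its call was lost without tumour 1 of CE428, CE468, CE475 or CE483 or tumour 2 of CE429 (adjusted p up to 0.0905). Neutrophil marker sums ran from 4.12 to 26.4 CPM in Variant 3 sgSetd2 and from 0.0 to 4.18 CPM in Variant 3 sgNeo tumours, and from 0.0 to 10.3 CPM in Variant 1 sgSetd2 and from 0.0 to 1.66 CPM in Variant 1 sgNeo tumours. With edgeR, 0 of 12 macrophage, 8 fibroblast and muscle, 5 pan-epithelial and 4 endothelial markers tested and 0 of the 1 lymphocyte marker tested passed in any comparison.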

How the data were processed

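RNA was isolated from sorted cells with the PicoPure kit, and libraries were made with the SMART-Seq mRNA kit and sequenced as paired reads on a NovaSeq, per the labels' protocols. The deposited table holds whole-number read counts per Ensembl gene ID for 36 samples, not normalized by the authors. Reads were aligned with STAR 2.5.3a and analysed in R 4.2 with DESeq2 1.38.3, per the submitters' processing notes. The tool that made the counts, its strand setting, the build and the gene models were not given in the sources used here. Paired reads carry no molecular identifiers. Symbols and exon lengths came from GENCODE release 21 for mouse (GRCm38), which matched 49326 of 49585 IDs, and 259 had no symbol. TPM values were computed from the counts with these lengths. Promoters came from RefSeq (GRCm38.p6), and 250 bases before the start were searched on both strands. No 2 libraries held identical values, and 0 columns lacked a sample.

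Counts of the 3 tumours of a title code were summed, filtered with filterByExpr by group (20009 genes left, all 10 members among them), scaled by TMM and tested with edgeR 4.0.16 in R 4.3.3, by the quasi-likelihood test over 4 groups of 3 codes, with Benjamini-Hochberg adjustment over all genes tested and a threshold of 0.05. CPM values use the TMM scaling. Contrasts were sgSetd2 minus sgNeo in each variant and averaged, Variant 3 minus Variant 1 under each guide, and their interaction. Alternatives were other scalings and filters, DESeq2 1.42.0, edgeR on tumours, limma 3.58.1 (on code means, and voom with codes as random blocks), sex of the code and macrophage markers as covariates, only the groups compared, and leaving out each code or tumour. The sex of a code was inferred from the Y-linked gene Ddx3y, above 50 CPM in CE475, CE429, CE433 and CE450. Such codes were spread unevenly, with none in Variant 1 sgNeo, while CE429 and CE433 both lay in Variant 3 sgNeo. The fit was tested on simulated data. The members, the context lists, the marker lists and the tests were chosen with earlier results of these data known. All members are named in each comparison or counted there. From each context list, up to 3 genes of smallest p in the averaged guide comparison and up to 3 in Variant 3 minus Variant 1 in sgNeo could be named, together with those that passed (1 such gene is not reported here), and for likeness the 3 nearest genes of each member. Code sums rest on 91.5 M to 212.1 M counts, and Fosl1, with 25 to 1809 counts per tumour, is the least precise member.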

Additional observations from a re-analysis of the deposited data

Results flagged for a closer look

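In 40 sets of 9 tumours (10 genes in 4 groups), 5 single values lay apart from the rest of their group, with a gap to the nearest tumour above 0.493 of the group's range. For 9 independent, normally distributed values, chance alone sets about 1 in 20 apart. These CPM values come from tumours that share codes, and the genes move together, so that rate need not hold here. In Variant 1 sgSetd2, tumour 3 of CE475 had the lowest Fos (2770 CPM, nearest 3660 CPM) and the lowest Ier2 (265 CPM, nearest 412 CPM). In the same group, tumour 4 of CE479 had the highest Jund (506 CPM, nearest 367 CPM), and it also had a mean log2 level of 10.2 over the heat shock list and 193 CPM of fibroblast and muscle markers, both the highest of its group. Fosl1 reached 10.1 CPM in tumour 10 of CE456 in Variant 3 sgSetd2 (nearest 4.66 CPM). Fosl1 also reached 36.2 CPM in tumour 1 of CE467 in Variant 1 sgNeo (nearest 15.3 CPM), the library with the lowest AT2 and highest fibroblast marker sums. The part of these markers in the values was not tested. For 0 of the 10 members did the guide difference differ between the variants by the interaction test of edgeR, where 1 had an unadjusted p under 0.05.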

How the results depend on the processing

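The number of members called was 0 with edgeR on code sums in all 6 comparisons and stayed 0 under each alternative and each fit without 1 code or 1 tumour, except that DESeq2 called 1 member, Jund, in the averaged guide comparison (log2 fold change 0.41, adjusted p = 0.0355). No paired analysis was possible because the tumour numbers in the titles count tumours within a code, and no code is shared between groups. Some fold changes turned their sign, and the cause was not tested. In Variant 1 (sgSetd2 minus sgNeo), edgeR on tumours gave -0.11 for Fos and -0.038 for Ier2, voom -0.019 for Fos and 0.01 for Atf3, limma on code means 0.036, the sex covariate 0.10 and the macrophage covariate 0.12 for Atf3. In 3 alternatives chosen after seeing the data, tumours were left out by marker sums. Without the 4 tumours above 100 CPM of fibroblast and muscle markers, Fos was -0.24, Junb -0.062, Egr1 -0.11 and Ier2 -0.16, and without the 6 tumours under 100000 CPM of AT2 markers, Fos was -0.20, Junb -0.07, Egr1 -0.029 and Ier2 -0.017. Jun and Jund kept their sign there, at 0.29 and 0.15 without the first and 0.27 and 0.21 without the second set. Without the 3 tumours above 100 CPM of macrophage markers no member turned its sign in the guide comparisons within a variant or between the variants in sgNeo. In Variant 3 (sgSetd2 minus sgNeo), voom gave -0.10, limma on code means -0.087 and the sex covariate -0.044 for Fosb, and the sex covariate -0.29 for Fosl1 and -0.025 for Jun. Without the tumours low in AT2 markers, Fos was -0.012, Fosb -0.15, Fosl1 -0.38 and Jun -0.031. For Variant 3 minus Variant 1 in sgNeo, Jun was -0.14 by edgeR on tumours, -0.075 by voom, -0.043 by limma on code means and -0.24 without either set of tumours. Ier2 was -0.049 by edgeR on tumours and -0.12 without the tumours high in fibroblast markers. Junb was 0.12 with the sex and 0.046 with the macrophage covariate, Egr1 0.062 with the sex covariate, and Jund 0.079 with the sex covariate, 0.033 with the macrophage covariate, 0.0061 with no filter, 0.016 with the stricter filter and 0.0012 with only the groups compared.

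Leaving out 1 code turned the sign in 23 fits of 14 results. The values ran from -0.64 to 0.088 for Fosb and from -0.31 to 0.56 for Atf3 in Variant 1, where Egr1 kept its sign with a highest value of 0.44. In Variant 3 they ran from -0.46 to 0.39 for Fos, -0.74 to 0.36 for Fosb, -0.22 to 0.39 for Fosl1, -0.35 to 0.40 for Jun, -0.01 to 0.52 for Junb, -0.39 to 0.47 for Egr1, -0.41 to 0.75 for Atf3 and -0.30 to 0.13 for Ier2. For Variant 3 minus Variant 1 in sgNeo they ran from -0.069 to 0.29 for Jun, -0.11 to 0.0029 for Junb, -0.10 to 0.15 for Jund and -0.86 to 0.073 for Atf3. Leaving out 1 tumour turned the sign in 48 fits of 12 results. The values ran from -0.24 to 0.21 for Fos, -0.034 to 0.38 for Junb, -0.11 to 0.42 for Egr1, -0.41 to 0.16 for Atf3 and -0.14 to 0.25 for Ier2 in Variant 1, where Fosb kept its sign with a lowest value of -0.67, and from -0.14 to 0.28 for Fosb, -0.30 to 0.54 for Fosl1 and -0.16 to 0.052 for Ier2 in Variant 3. For Variant 3 minus Variant 1 in sgNeo they ran from -0.24 to 0.26 for Jun, -0.36 to 0.051 for Junb, -0.25 to 0.095 for Jund and -0.12 to 0.27 for Ier2, and Atf3 kept its sign with a lowest value of -0.89.

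The number of all genes called differed as follows. In Variant 1, edgeR on code sums called 284 genes, DESeq2 1500, edgeR on tumours 677, the stricter filter 483, the sex covariate 102, the macrophage covariate 43, the set without high macrophage markers 68 and the set without low AT2 markers 36. In Variant 3 it called 299, DESeq2 1330, edgeR on tumours 1361, voom 1058, limma on code means 563, the stricter filter 452, the sex covariate 188, the macrophage covariate 185, only the groups compared 172 and the set without high macrophage markers 158. In the averaged comparison it called 1471, DESeq2 2908, edgeR on tumours 2706, voom 2237, the set without low AT2 markers 910 and the set without high macrophage markers 845. Between the variants in sgNeo it called 1, DESeq2 392, edgeR on tumours 140, voom 22, no filter and the set without high fibroblast markers 4 each, the stricter filter 3, the set without low AT2 markers 33, and both covariates and only the groups compared 0. In sgSetd2 it called 26, DESeq2 485, edgeR on tumours 479, voom 256, limma on code means 68, no filter 44, the stricter filter 50, the set without high fibroblast markers 73, the macrophage covariate 13, the set without high macrophage markers 12 and only the groups compared 9. For the interaction it called 0, DESeq2 114, edgeR on tumours 8, voom 2, and the macrophage covariate, no filter and the stricter filter 1 each. Over the fits without 1 code, the number of all genes called ran from 16 (without CE483) to 360 (CE479) in Variant 1, from 78 (CE433) to 304 (CE479) in Variant 3, from 728 (CE475) to 1501 (CE429) averaged, from 0 to 1 between the variants in sgNeo and from 1 (CE450) to 50 (CE454) in sgSetd2, and was 0 in each for the interaction. Over the fits without 1 tumour it ran from 17 (tumour 2 of CE472) to 495 (tumour 4 of CE479) in Variant 1, from 176 (tumour 2 of CE428) to 321 (tumour 4 of CE454) in Variant 3, from 846 (tumour 2 of CE472) to 1681 (tumour 4 of CE479) averaged, from 0 to 5 (tumour 3 of CE429) between the variants in sgNeo, from 3 (tumour 3 of CE433) to 37 (tumour 3 of CE454) in sgSetd2 and from 0 to 1 for the interaction. The count also moved by over 1.5 times in Variant 1 without CE475 (19), CE468 (60), CE472 (71) or CE467 (113), or without tumour 1 of CE468 (51), CE467 (76), CE479 (148) or CE428 (175), tumour 3 of CE433 (67) or tumour 6 of CE472 (445). It did so in Variant 3 without CE428 (81), CE450 (101) or CE475 (195), tumour 2 of CE472 (191) or tumour 1 of CE468 (194), in the averaged comparison without CE483 (763), CE428 (845), CE468 (900), CE433 (902) or CE450 (970), and between the variants in sgSetd2 without CE456 (2), CE483 (7) or CE468 (17), tumour 2 of CE429 (7), tumour 3 of CE467 (11), tumour 9 of CE456 (16) or tumour 1 of CE468 (17). With 3 codes a group, the 95% intervals in Variant 1 reached from 0.08 to 0.94 for Jund and from -3.49 to -0.14 for Fosl1 on the log2 scale.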
